A study of Homo sapiens with 4 samples.

Results

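The integrated stress response and the unfolded protein response were followed through 43 genes in PC3 cells, a line derived from a bone metastasis of human prostate cancer. The genes were chosen by name. They comprise 26 genes of an ATF4 branch, made up of ATF4 with its targets, the enzymes and transporters that supply amino acids and the kinase EIF2AK4, and 17 genes of an endoplasmic reticulum (ER) chaperone branch, made up of the stress sensors of the ER with XBP1, the folding factors and the genes that clear misfolded proteins. The array tables hold no gene names, so probes were named through their transcript accessions and the RefSeq gene table of GRCh38.p14. In this way 42 of the 43 genes were found, on 51 probes, among 19102 named genes. SLC3A2 had no named probe. ALDH1L2 had a single probe that was not well above background on any of the 4 arrays. The other 41 genes, 24 of the ATF4 branch and 17 of the ER chaperone branch, were well above background on all 4 arrays and were tested among 14556 genes.

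The cells had been infected for 48 h with lentivirus carrying an shRNA against ALKBH3, a demethylase that repairs alkylated nucleic acids, or an shRNA against GFP as control, called knockdown and control cells below. They were then selected with puromycin, an antibiotic that stops protein synthesis, for 48 h or 96 h. Each combination of shRNA and selection time was measured on 1 single-colour Agilent array, so that each shRNA is represented by 2 arrays which differ in time. All 4 samples therefore share infection and selection, the labels leave the particular ALKBH3 shRNA unnamed, and uninfected cells were not analysed here. Nothing states that the samples came from separate cultures, so the p-values measure only the spread between these arrays, which may be technical. With so few arrays, limma also draws the spread of each gene towards that of all genes. Every signal below is a log2 intensity minus the 75th percentile of its array. Signals of different probes cannot be set against each other, and comparisons are made within a gene.

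The integrated stress response starts from kinases that phosphorylate the translation factor eIF2. This slows protein synthesis in general while more ATF4 protein is made from its messenger RNA, and ATF4 then activates genes for amino acid synthesis and uptake and for feedback on the response. The kinases are EIF2AK1 (HRI), which responds to haem shortage and mitochondrial stress, EIF2AK2 (PKR), which responds to double-stranded RNA, EIF2AK3 (PERK), which responds to misfolded protein in the ER, and EIF2AK4 (GCN2), which responds to amino acid shortage. The unfolded protein response of the ER is sensed by PERK together with ERN1 (IRE1), which splices XBP1 messenger RNA, and ATF6, which is cleaved to a transcription factor. XBP1 and ATF6 raise chaperones such as HSPA5 (BiP) and genes of ER-associated degradation. The arrays read messenger RNA, so eIF2 phosphorylation, ATF4 translation and XBP1 splicing were not measured.

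The signal of ALKBH3 itself was -0.74 in control and -2.48 in knockdown cells at 48 h and -0.89 and -2.41 at 96 h, which gave a log2 fold change of -1.63. The share of probes well above background ran from 67.0% to 70.9% per array. Across all genes, the median absolute log2 difference was 0.15 between the shRNAs at 48 h and 0.14 at 96 h, against 0.18 between the 2 control arrays. The epithelial markers KRT8, KRT18 and KRT19 were well above background on all arrays, whereas KLK3 was not measured above background in either group. Of 8 markers of blood, stromal and endothelial cells, 0 had an unadjusted limma p below 0.05 between the shRNAs or passed an adjusted p with time point added as a block. Their signals lay between -6.26 and -0.26. PTPRC, CD3E, CD14, COL1A1, COL3A1, PECAM1 and CDH5 were well above background on all 4 arrays, and VWF on 3. The check therefore does not show these markers to be absent. The shRNA groups did not overlap in COL1A1 and VWF, with log2 fold changes of 0.71 and 0.29, or in COL3A1 and PECAM1, with -0.43 and -0.59. Over all genes tested, 17.4% did not overlap on the higher side and 19.1% on the lower. The 2 arrays of each selection time shared a slide, so slide and time point cannot be told apart.

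Short sequence elements mark both branches and were looked up in the RefSeq promoter windows of GRCh38.p14, which run from 250 bases before a start site to 50 bases after it. The C/EBP-ATF response element (CARE), the composite site to which ATF4 binds with a C/EBP partner, was searched as TGATGNAA. The ER stress response element (ERSE) is CCAAT, 9 unspecified bases and CCACG, its shorter form ERSE-II is ATTGG, 1 unspecified base and CCACG, and the unfolded protein response element (UPRE) was searched as TGACGTGG. Each motif was searched on both strands. Windows were found for 39 of the 43 genes, 13 of which have several start sites. PSPH, SHMT2, ALDH1L2 and SLC7A11 have no window in the table. The stretches below are shown as examples of these elements in genes of both branches whose values are described below, whether or not they passed a test, and capitals mark the letters that match a motif.
ATF3, chr1:212565186-212565253, plus strand: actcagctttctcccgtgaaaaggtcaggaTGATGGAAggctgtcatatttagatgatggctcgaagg
CHAC1, chr15:40953232-40953299, plus strand: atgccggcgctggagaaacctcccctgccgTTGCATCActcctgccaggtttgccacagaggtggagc
ASNS, chr7:97872439-97872506, minus strand: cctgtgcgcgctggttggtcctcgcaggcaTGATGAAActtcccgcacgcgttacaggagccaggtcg
HERPUD1, chr16:56931936-56932065, plus strand: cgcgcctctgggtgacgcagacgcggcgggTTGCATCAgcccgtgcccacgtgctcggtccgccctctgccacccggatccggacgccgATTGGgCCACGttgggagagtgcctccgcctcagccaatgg
HSPA5, chr9:125241361-125241439, minus strand: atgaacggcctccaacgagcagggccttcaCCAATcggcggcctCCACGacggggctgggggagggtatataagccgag
HSP90B1, chr12:103930186-103930369, plus strand: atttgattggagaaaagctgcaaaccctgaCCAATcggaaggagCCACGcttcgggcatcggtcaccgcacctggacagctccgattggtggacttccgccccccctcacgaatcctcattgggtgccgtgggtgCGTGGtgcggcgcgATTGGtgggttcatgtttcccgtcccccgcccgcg
CRELD2, chr22:49918524-49918602, plus strand: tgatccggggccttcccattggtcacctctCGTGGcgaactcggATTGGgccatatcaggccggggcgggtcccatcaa
All of them lie before the start site of the named gene and are written in its direction. The capitals are CARE in ATF3, CHAC1 and ASNS, CARE followed by ERSE-II in HERPUD1, ERSE in HSPA5 and CRELD2 and a pair of ERSE matches in HSP90B1. The ATF3 match belongs to the first of its 2 windows, far upstream of the second.

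An ERSE or ERSE-II match was present in 9 of the 17 ER chaperone genes, while 0.131% of all 35116 promoter windows hold such a match. The 9 genes were XBP1, HSPA5, HSP90B1, HYOU1, CALR, PDIA6, SDF2L1, CRELD2 and HERPUD1. None of the 22 ATF4 branch genes with a window held either form. CARE was found in 7 of these 22 genes and in HERPUD1, against 3.62% of all windows. In ATF3, CHAC1, ASNS and SLC1A5 CARE lay before the start site, in SLC7A1 and SLC3A2 after it, and in SLC1A4 across it, from -7 to 0. UPRE was found in HYOU1 alone, where it overlaps an ERSE-II match, and in 0.729% of all windows. No match says only that these letters are not in this window. A gene was counted when any of its windows held a match, while the percentages are per window, so the units differ. The genes were also chosen by name as members of these responses, so the shares are a description and were not tested.

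**Figure D1:**
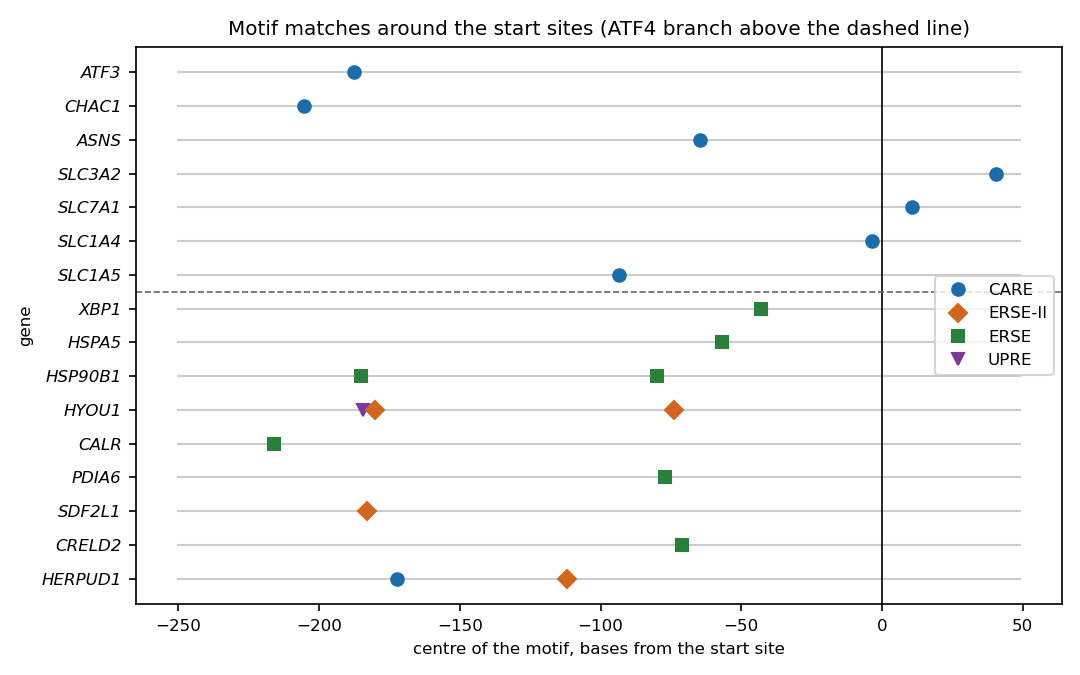
Motif matches in the promoter windows of the 16 genes that hold any. The x axis gives the centre of a match in bases from the start site at 0, grey lines mark the window from 250 bases before the start to 50 after it, and symbols stand for CARE, ERSE, ERSE-II and UPRE. All ERSE and ERSE-II matches lie in ER chaperone branch genes and before the start.

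ALKBH3 shRNA moved few genes of either branch beyond the spread of the arrays. The cystine transporter SLC7A11 was lower, by -0.89 on the log2 scale (standard error 0.31), in pooled RNA in which fewer expressing cells and less RNA per cell cannot be told apart, and the stress-induced transcription factor ATF3 was higher, by 0.59 (standard error 0.49). Both passed an adjusted p only when time point entered the model as a block. ATF4, its early target DDIT3 and the ER chaperone HSPA5 did not pass any test, with log2 fold changes of -0.10, -0.04 and 0.07. At a 2-fold change with an unadjusted p below 0.05, the cutoffs of the study, 0 genes of either branch were called. The same cutoffs called 1.04% of all genes as higher and 0.234% as lower. In limma 0 of 14556 genes passed a Benjamini-Hochberg adjusted p of 0.05. At an unadjusted p below 0.05 there were 2 of the 41 genes, SLC7A11 lower and SLC7A5 higher, where 3.63% of all genes were lower and 4.7% higher. With time point as a replicate block, SLC7A11 (limma adjusted p = 0.0396) and ATF3 (limma adjusted p = 0.0421) passed, while 1.5% of all genes were lower and 2.96% higher in that fit.

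**Figure D2:**
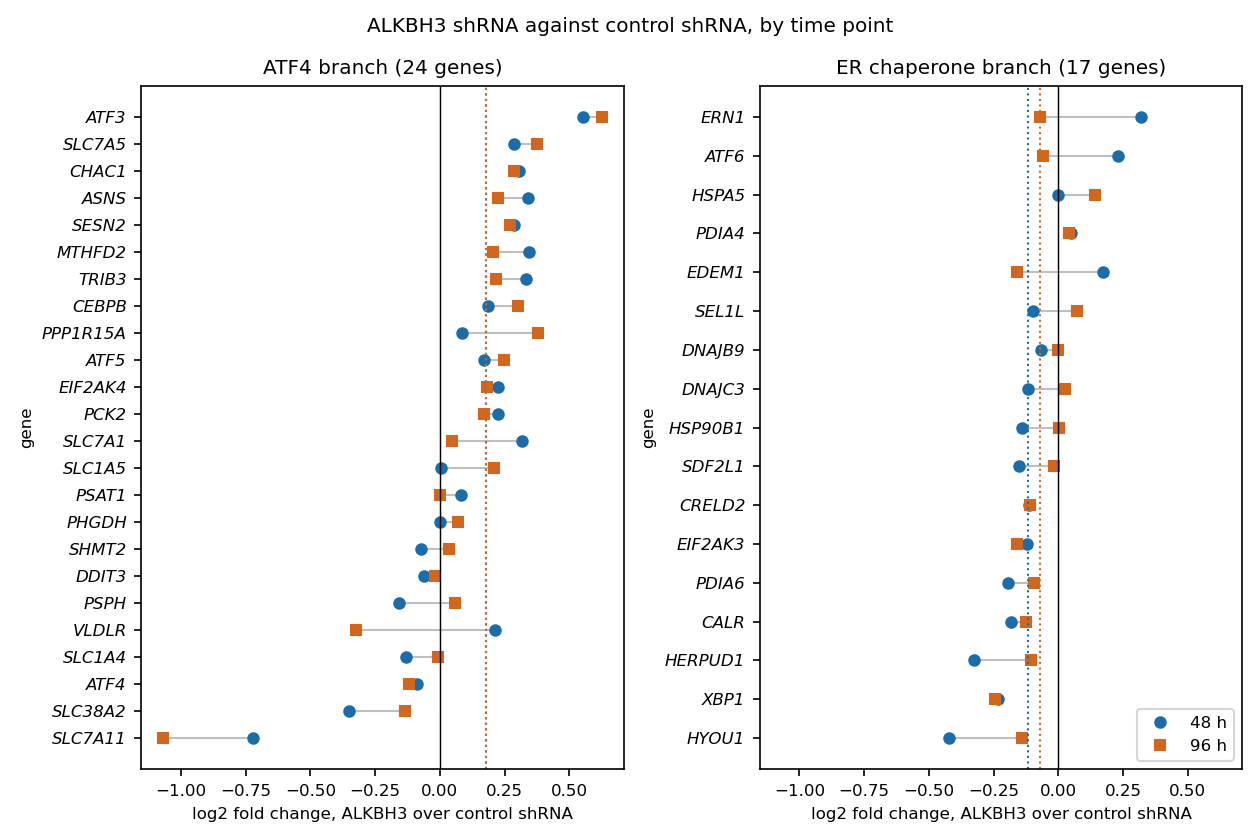
Log2 fold change of ALKBH3 over control shRNA for each tested gene of the ATF4 branch (left, 24 genes) and the ER chaperone branch (right, 17 genes). Circles are the arrays at 48 h, squares those at 96 h, each 1 array against 1 array, and dotted lines are the medians of the branch at that time point. SLC7A11 lies apart on the low side at both times, and ATF3 is the highest.

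SLC7A11 encodes the cystine-importing chain of the exchanger xCT, which feeds glutathione synthesis, and is a target of both ATF4 and the antioxidant factor NRF2. Its signal was 1.89 in control and 1.17 in knockdown cells at 48 h and 1.48 and 0.41 at 96 h. Both knockdown arrays lay below both control arrays. At 48 h the intensity was 0.607 times that of the control, and at 96 h 0.477 times. The log2 fold change over all arrays was -0.89 (95% interval -1.71 to -0.08, limma unadjusted p = 0.0380, adjusted p = 0.571), and 62 of the 14556 genes had a lower one. Under the other settings with 4 arrays it stayed between -0.92 and -0.80. Leaving out the knockdown array at 48 h gave -1.27, leaving out the control array at 96 h gave -1.10, and the smallest value with 1 array missing was -0.52, when the knockdown array at 96 h was left out. In the fit with the block, the limma adjusted p ranged from 5.74e-10 to 0.195 over 10 settings and was below 0.05 in 9 of them, the exception being no filter on dim probes.

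ATF3, a repressor that is raised early in many stresses, had signals of -0.32 and 0.24 in control and knockdown cells at 48 h and of -1.37 and -0.75 at 96 h. It was higher with ALKBH3 shRNA at both times, by 0.55 and 0.62, but the groups overlapped, since the gene was also lower at 96 h. A second ATF3 probe differed by 0.64 and 0.70 and was dimmer, and the other two probes differed by 0.18 and 0.22 and by -0.07 and 0.17. With the mean over its probes the log2 fold change was 0.38 and the limma adjusted p with the block 0.0796. Over 10 settings with the block the adjusted p lay between 1.71e-05 and 0.195 and was below 0.05 in 8. With 1 array left out the log2 fold change of ATF3 fell to 0.06 when the 96 h control was missing and to 0.10 when the 48 h knockdown was, and rose to 1.12 and 1.08 when either of the others was missing.

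Other genes in the group of transcription factors and regulators of the ATF4 branch, in which CHAC1 and VLDLR were also counted, differed less. CHAC1, which degrades glutathione, had signals of 1.12 and 1.43 in control and knockdown cells at 48 h and of 0.29 and 0.57 at 96 h. SESN2, an inhibitor of mTORC1 signalling, had -2.20 and -1.91 at 48 h and -3.04 and -2.76 at 96 h. Both lay above the control by about the same log2 difference at each time, 0.31 and 0.29 in CHAC1 and 0.28 and 0.27 in SESN2, and neither passed, with limma adjusted p-values with the block of 0.111 and 0.123. TRIB3, a pseudokinase that restrains ATF4 signalling, differed by 0.33 at 48 h and 0.21 at 96 h, and CEBPB, a partner of ATF4, by 0.19 and 0.30. ATF5, a close relative of ATF4, differed by 0.17 and 0.25, and PPP1R15A (GADD34), which brings the eIF2 phosphatase to its substrate, by 0.09 and 0.38. In ATF5 and PPP1R15A both knockdown arrays lay above both control arrays. ATF4 itself had signals of 4.69 and 4.60 at 48 h and of 4.25 and 4.13 at 96 h, so the shRNA arrays lay within 0.12 of each other at each time. DDIT3 (CHOP), which promotes cell death in lasting stress, had -0.12 and -0.18 at 48 h and -0.75 and -0.77 at 96 h. Without the block, the 95% interval of the log2 fold change ran from -0.75 to 0.54 for ATF4 and from -0.86 to 0.78 for DDIT3. That leaves room for changes of up to about that size, but this fit counts the difference between 48 h and 96 h as spread. The standard error was 0.24 for ATF4 and 0.31 for DDIT3 without the block, and 0.076 for each with it. The smaller one rests largely on the variance that limma shares across all genes. VLDLR, a lipoprotein receptor gene that is induced in ER stress, was 0.21 higher at 48 h and 0.33 lower at 96 h.

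Among the enzymes, ASNS, which makes asparagine, had signals of 2.90 and 3.24 in control and knockdown cells at 48 h and of 2.63 and 2.85 at 96 h. MTHFD2, a mitochondrial folate enzyme, had 1.29 and 1.63 at 48 h and 1.42 and 1.62 at 96 h, with both knockdown arrays above both control arrays and a difference of 0.27 over all arrays (standard error 0.12 and limma adjusted p = 0.657). The serine synthesis genes PHGDH, PSAT1 and PSPH had log2 fold changes of 0.04, 0.04 and -0.05, and SHMT2, which turns serine into glycine, of -0.02. The sign of PSAT1 and PSPH changed under some other settings. PCK2, the mitochondrial enzyme that makes phosphoenolpyruvate, had 0.20, but its other probe had -0.26. ALDH1L2, a mitochondrial folate enzyme, was not well above background on any array. The 4 enzymes of serine and glycine synthesis thus showed the smallest differences of the tested enzymes, each inside its standard error of between 0.12 and 0.16.

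Among the transporters, SLC7A5, the light chain of the large neutral amino acid exchanger LAT1, had signals of -0.30 and -0.01 at 48 h and of -0.36 and 0.01 at 96 h, in the same order. Both knockdown arrays lay above both controls, for a difference of 0.33 over all arrays (standard error 0.11 and limma unadjusted p = 0.0358, adjusted p = 0.565), and it did not pass with the block (limma adjusted p = 0.0984). SLC7A1, an importer of cationic amino acids, differed by 0.32 at 48 h and 0.05 at 96 h, and the neutral amino acid transporter SLC1A5 by 0.01 and 0.21. SLC38A2, which is induced by amino acid shortage, had -0.35 and -0.14, and its other probe -0.24 and -0.29. SLC1A4, another neutral amino acid transporter, had -0.13 at 48 h and -0.01 at 96 h. Both genes at an unadjusted p below 0.05, SLC7A11 and SLC7A5, were thus transporters, and they differed in opposite directions. EIF2AK4, the kinase of the branch, differed by 0.22 at 48 h and 0.18 at 96 h, without overlap of the shRNA groups (limma adjusted p = 0.741).

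Over the whole ATF4 branch the log2 fold changes had a median of 0.18 at 48 h, 0.18 at 96 h and 0.19 over all arrays, with values from -0.89 to 0.59. The median of all 14556 genes was -0.0030. At both times 15 of the 24 genes were higher and 5 were lower, where 5033 and 5184 of the 14556 genes were. The shRNA groups did not overlap in 7 genes with higher signal and 1 with lower, and over all genes 17.4% did not overlap on the higher side and 19.1% on the lower. The median fell to 0.0042 when the knockdown array at 48 h was left out and to 0.0027 when the control array at 96 h was, 2 settings in which the groups no longer hold the same time points. By role, the median was 0.24 in the 10 transcription factors and regulators, 0.04 in the 7 tested enzymes and 0.02 in the 6 tested transporters. CHAC1 and VLDLR were counted among the 10.

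The ER chaperone branch had a median log2 fold change of -0.12 at 48 h, -0.07 at 96 h and -0.07 over all arrays, with values from -0.28 to 0.12. At an unadjusted limma p below 0.05 there were 0 of its 17 genes, as at the adjusted p with or without the block. The median turned to 0.015 when the control array at 48 h was left out and to 0.019 when the knockdown array at 96 h was, and stayed negative at -0.11 and -0.16 when the knockdown array at 48 h or the control array at 96 h was. At both times 9 genes were lower and 1 was higher, where 5184 and 5033 of all 14556 genes were. The groups did not overlap in 5 genes, all folding genes and all lower with ALKBH3 shRNA, namely HYOU1, CALR, PDIA6, SDF2L1 and CRELD2, where 19.1% of all genes did not overlap on the lower side.

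HSPA5, the master chaperone that also holds the sensors inactive, had a signal of 1.74 with both shRNAs at 48 h and of 1.40 and 1.54 in control and knockdown cells at 96 h. HSP90B1 (GRP94), the ER member of the HSP90 family, had 5.97 and 5.83 at 48 h and 5.79 on both arrays at 96 h, and its other probe differed by -0.02 and 0.03. Neither chaperone with its ERSE thus differed beyond the spread of the arrays. HYOU1, a nucleotide exchange factor for HSPA5, had -1.54 and -1.97 at 48 h and -1.77 and -1.91 at 96 h, the lowest log2 fold change of the branch at -0.28 (standard error 0.13 and limma adjusted p = 0.697). CALR, a calcium-binding lectin chaperone, had -0.15, the disulfide isomerases PDIA4 and PDIA6 0.05 and -0.14, the HSPA5 cochaperone component SDF2L1 -0.08, and CRELD2, a secreted marker of ER stress, -0.11. The J-domain cochaperones DNAJB9 and DNAJC3 had -0.03 and -0.04, the former with a sign that turned under other settings. Of the 9 genes with an ERSE or ERSE-II match, 8 were lower over all arrays, with a median of -0.14, and of the 8 genes without one, 4 were, with a median of -0.0025. These groups were formed after the values were seen and were not tested.

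Among the sensors, EIF2AK3 had signals of -1.65 and -1.77 in control and knockdown cells at 48 h and of -1.95 and -2.11 at 96 h. ERN1 had a weak signal of -6.11 and -5.79 at 48 h and of -5.81 and -5.88 at 96 h, and ATF6 had 1.26 and 1.49 at 48 h and 1.22 and 1.15 at 96 h. Neither ERN1 nor ATF6 kept 1 direction across the time points. XBP1 was 0.23 lower at 48 h and 0.24 lower at 96 h, or -0.24 over all arrays (standard error 0.19 and limma adjusted p = 0.858). The probe does not tell its spliced from its unspliced form. Of the degradation genes, HERPUD1, a scaffold of the ER ubiquitin ligase complex, had 4.03 and 3.70 at 48 h and 3.50 and 3.39 at 96 h. SEL1L, the adaptor of that complex, had -0.01 over all arrays and EDEM1, which passes misfolded glycoproteins on for degradation, 0.01, and both signs changed under other settings.

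**Figure D3:**
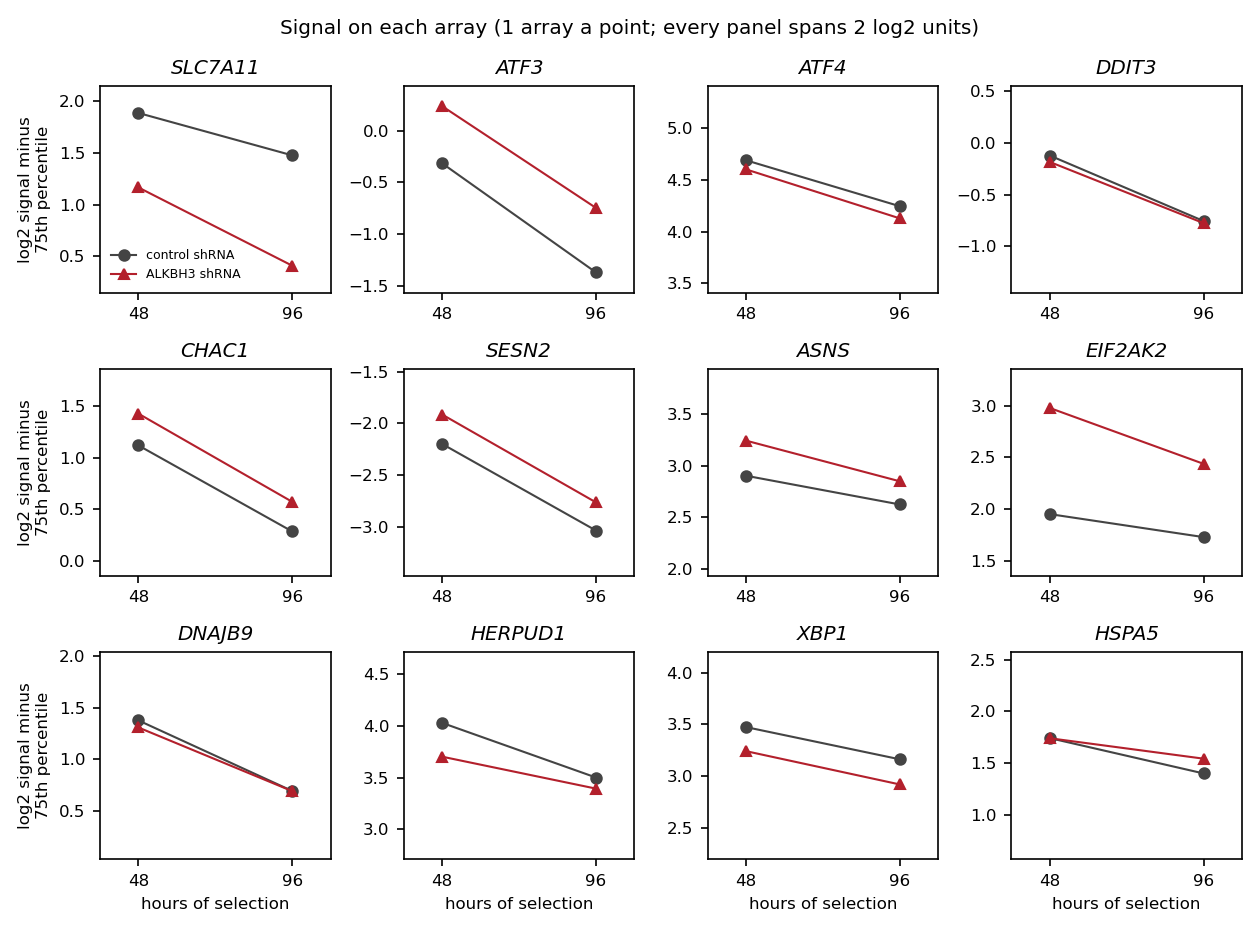
Signal of 12 genes on the 4 arrays against the hours of selection. Each point is 1 array, circles are control shRNA, triangles are ALKBH3 shRNA, and the y axis is the log2 signal minus the 75th percentile of the array, over 2 log2 units in every panel. The lines of SLC7A11 and EIF2AK2 lie apart, while those of ATF4, DDIT3, DNAJB9 and HSPA5 nearly coincide and those of CHAC1, SESN2 and ATF3 run down in parallel.

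In the fits with a block, more ATF4 branch genes passed between 48 h and 96 h, and thus between the slides, than between the shRNAs. The same held over all genes, of which 1.5% were lower and 2.96% higher between the shRNAs. With shRNA as a replicate block, 8 of the 24 ATF4 branch genes fell from 48 h to 96 h and none rose at a limma adjusted p below 0.05, where 6.94% of all genes fell and 5.84% rose. The genes were ATF3, CHAC1, SESN2, PCK2, DDIT3, SLC7A11, TRIB3 and ATF4. In the ER chaperone branch 1 of 17 genes fell in that fit, DNAJB9. Without the block 0 of 14556 genes passed the adjusted p. At an unadjusted p below 0.05, 13 of the 41 genes were lower at 96 h, 8 in the ATF4 branch and 5 in the ER chaperone branch, and 0 were higher. Over all genes 8.98% were lower and 9.42% higher by this measure.

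**Figure D4:**
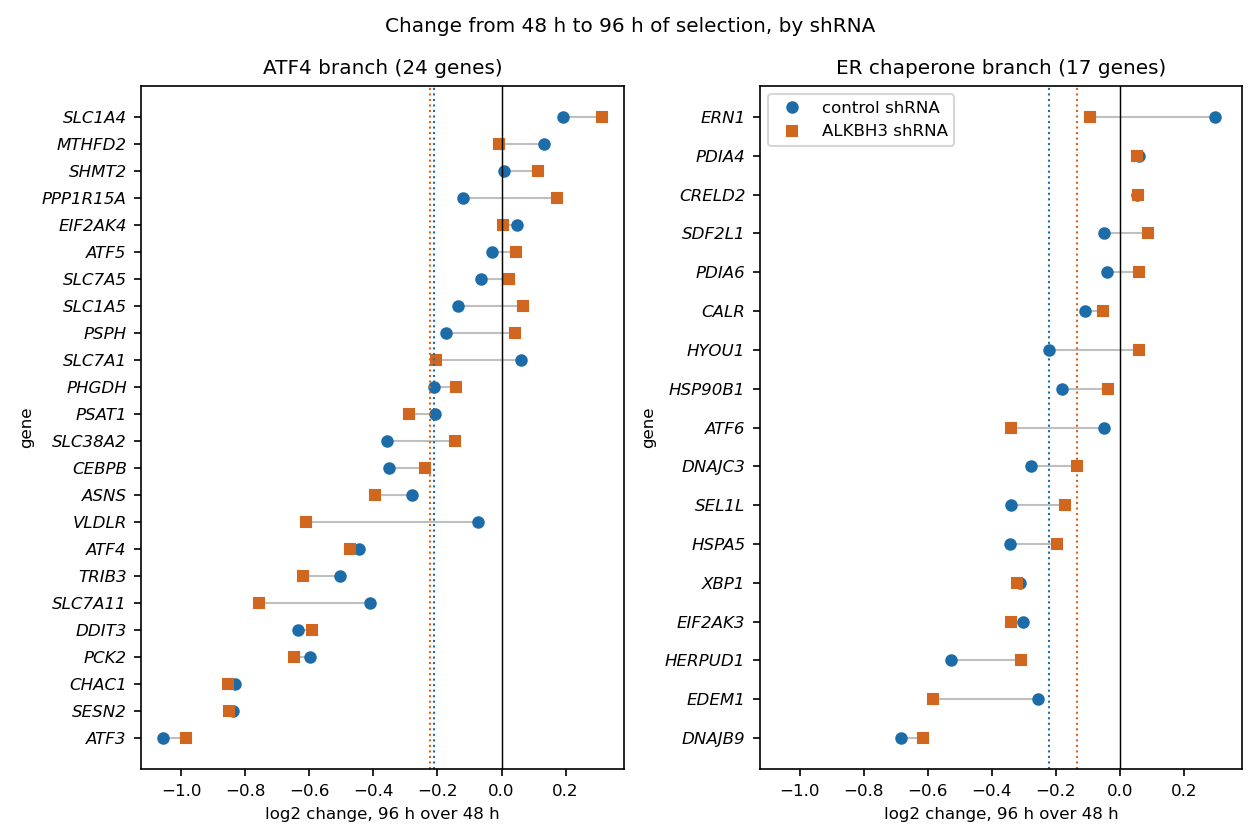
Log2 change from 48 h to 96 h for each tested gene of the ATF4 branch (left, 24 genes) and the ER chaperone branch (right, 17 genes). Circles are control shRNA and squares are ALKBH3 shRNA, each 1 array against 1 array, and dotted lines are the medians of the branch with that shRNA. The 8 ATF4 branch genes that passed the adjusted p in the fit with the block lie at the bottom of the left panel.

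ATF3 was the single gene of both branches past the 2-fold cutoff, which 0.66% of all genes passed on the lower side. The signal of ATF3 changed by -1.06 with control shRNA and by -0.98 with ALKBH3 shRNA, and its log2 change over all arrays was -1.02 (standard error 0.30 and limma unadjusted p = 0.0251, adjusted p = 0.0236 with shRNA as a block). It was not past the 2-fold cutoff under 5 of the other settings with 4 arrays, in which the log2 change lay between -0.98 and -0.39, nor without the 48 h knockdown array (-0.74) or the 96 h control array (-0.71). The smallest value was that of the mean over its probes. The second ATF3 probe changed by -0.84 and -0.78, whereas the other two changed by 0.02 and 0.06 and by 0.10 and 0.34, so the probes of ATF3 disagree on the fall.

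CHAC1 fell by 0.83 on the log2 scale with control shRNA and by 0.85 with ALKBH3 shRNA, and its other probe by 0.69 and 0.72. SESN2 fell by 0.84 and 0.85. The 48 h arrays of both genes lay above both 96 h arrays, and their limma adjusted p with the block was 0.0236 each. DDIT3 fell by 0.63 and 0.59 (limma adjusted p with the block = 0.0263), TRIB3 by 0.50 and 0.62 (adjusted p = 0.0301), and PCK2 by 0.60 and 0.65 (adjusted p = 0.0262). The other PCK2 probe moved the same way, by -0.74 and -0.57. ATF4 fell by 0.44 and 0.47, a level at 48 h that was 1.38 times that at 96 h (limma adjusted p = 0.0362 with the block), and its log2 change was -0.26 at the smallest under another setting. SLC7A11 fell by 0.41 with control shRNA and by 0.76 with ALKBH3 shRNA (limma adjusted p = 0.0458). Its time points overlapped, because the control array at 96 h lay above the knockdown array at 48 h, and the change of SLC7A11 over the remaining 3 arrays was -0.05 when the 96 h knockdown array was left out and -0.22 when the 48 h control array was. Over 10 settings with the block, the adjusted p was below 0.05 in 7 for ATF4, 8 for SLC7A11 and 9 each for the other 6 genes, with no filter on dim probes as the exception for all 8.

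Most of the enzymes and transporters did not follow these genes. ASNS changed by -0.28 with control shRNA and by -0.39 with ALKBH3 shRNA and PSAT1 by -0.21 and -0.29, and neither passed with the block. PHGDH changed by -0.18 over all arrays, PSPH by -0.07, SHMT2 by 0.06 and MTHFD2 by 0.06. The transporters SLC7A5, SLC1A5 and SLC7A1 changed by -0.02, -0.03 and -0.07, SLC38A2 by -0.25, and SLC1A4 by 0.25. The signs of PSPH, SHMT2, SLC7A5, SLC1A5 and SLC7A1 turned under other settings. Of the regulators, CEBPB changed by -0.30 and VLDLR by -0.34, ATF5 and PPP1R15A by 0.01 and 0.03, and EIF2AK4 by 0.03, with turning signs in ATF5 and EIF2AK4. By role, the median log2 change was -0.51 in the regulators, with CHAC1 and VLDLR counted there, -0.18 in the enzymes and -0.05 in the transporters. Over the branch it was -0.21 in control and -0.22 in knockdown cells, and -0.25 over all arrays, where all genes had -0.0061. The median over all arrays was -0.13 after normexp background correction and -0.13 on the authors' own normalized values. In 14 of the 24 genes the 96 h array was lower with both shRNAs, as in 5703 of all 14556 genes.

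In the ER chaperone branch the median log2 change was -0.22 with control shRNA, -0.13 with ALKBH3 shRNA and -0.19 over all arrays. With both shRNAs 11 of its 17 genes were lower, where 5703 of all 14556 genes were. DNAJB9, the cochaperone that restrains ERN1 and is a known XBP1 target, had signals of 1.38 and 1.31 in control and knockdown cells at 48 h and of 0.69 on both arrays at 96 h. It fell by 0.65 over all arrays (standard error 0.09 and limma adjusted p = 0.0257 with shRNA as a block). HERPUD1 and EDEM1 changed by -0.42 each, EIF2AK3 and XBP1 by -0.32 each, HSPA5 by -0.27, SEL1L by -0.26, DNAJC3 by -0.20 and ATF6 by -0.19. The unadjusted limma p was 0.0431 for HERPUD1, 0.0211 for EDEM1, 0.0405 for EIF2AK3 and 0.0495 for HSPA5, and none of the 4 passed with the block. HSP90B1 changed by -0.11 and CALR and HYOU1 by -0.08 each, while PDIA4, PDIA6, SDF2L1, CRELD2 and ERN1 changed by between 0.01 and 0.10. Of these, SDF2L1 alone kept its sign under the other settings with 4 arrays. Thus the genes with an ERSE or ERSE-II match ranged from -0.42 to 0.05, with a median of -0.08, and those without one from -0.65 to 0.10, with a median of -0.23. The 5 genes with CARE before the start ranged from -1.02 to -0.03. SLC7A1 and SLC1A4, with CARE after or across the start, changed by -0.07 and 0.25. Of the other ATF4 branch genes that fell, SESN2, DDIT3, TRIB3, PCK2 and ATF4 held no CARE in their windows, and SLC7A11 had no window. A link between these motifs and the changes was not tested.

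Counted by overlap, both 96 h arrays lay below both 48 h arrays in 13 ATF4 branch genes and 10 ER chaperone genes, and above them in 2 and 1. Over all genes 26% lay below and 26.6% above. The decline of the 9 genes was of similar size with both shRNAs, apart from SLC7A11. A difference in decline between the shRNAs could not be tested with 1 array for each combination.

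Further genes of these pathways that are in neither branch were followed in the same way, 34 of the integrated stress response and 39 of the unfolded protein response. Of the former 30 were tested and of the latter 38. Between the shRNAs 0 of these 68 genes were past the 2-fold cutoffs. The stress kinase EIF2AK2 had signals of 1.95 and 2.98 in control and knockdown cells at 48 h and of 1.73 and 2.44 at 96 h. It was higher by 1.03 and 0.71, or 0.87 over all arrays (standard error 0.22 and limma unadjusted p = 0.0143, adjusted p = 0.433), and passed with time point as a block (limma adjusted p = 0.0392, from 3.52e-07 to 0.195 over 10 settings). Its other probe also gave 0.87 over all arrays. EIF2AK2 is also a textbook interferon-stimulated gene. The other kinase outside the branches, EIF2AK1, had -0.12 over all arrays.

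JDP2, a relative of ATF3, differed by 0.97 and 0.69 between the shRNAs at a weak signal, with overlapping groups, and passed with the block (limma adjusted p = 0.0385). The log2 fold change of JDP2 over all arrays, 0.83, lay between 0.54 and 0.85 over the settings with 4 arrays, was 0.28 and 0.42 when the 48 h knockdown or the 96 h control array was left out, and was 1.24 and 1.38 when the 48 h control or the 96 h knockdown array was. GDF15, a secreted stress cytokine, differed by 0.50 and 0.31 and did not pass (limma adjusted p with the block = 0.0853). In the unfolded protein response list, SIL1, an exchange factor for HSPA5, was well above background on the 2 knockdown arrays alone, through which it entered the tested genes, so no test is given for it, and its log2 fold change ranged from 0.09 to 0.66 over the settings. SEC24D, a coat protein of ER export, had a log2 fold change of -0.52 and PDIA5, a disulfide isomerase, of -0.31, and neither passed with the block. The median of the log2 fold changes came to 0.09 for the integrated stress response list and -0.03 for the other. With time, 7 of 30 and 3 of 38 genes fell with shRNA as a block and 0 rose, where 6.94% of all genes fell and 5.84% rose, so that the share in the second list was near that of all genes. Those with the largest falls were JDP2, by 0.96 (0.47 at the smallest, when the 48 h knockdown array was left out), GDF15, by 0.86, and NUPR1, a stress-induced chromatin protein, by 0.81, and in the second list ERO1B, an ER oxidase that was well above background on 3 of the 4 arrays, by 0.86, FKBP14, a prolyl isomerase, by 0.68, and ERLEC1, an ER lectin, by 0.43.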

How the data were processed

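RNA from PC3 cells with ALKBH3 or control shRNA had been hybridised to 4 single-colour Agilent arrays. Per the file headers, the spot intensities were deposited after background subtraction by Agilent Feature Extraction 10.7.3.1 on each array alone. The authors also deposited log2 values normalized between the arrays with limma, by a method that is not given in the sources used here, and these served as an alternative.

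Spots marked as outliers were removed (180 to 379 on an array), log2 intensities were centred on the 75th percentile of the array, and spots of a probe were averaged. RefSeq accessions named 24910 of 34127 probes; the tables have no gene name column. A probe was kept when both arrays of either shRNA showed it well above background, and the brightest probe stands for its gene. limma 3.58.1 in R 4.3.3 (lmFit and eBayes, no covariate) compared 2 arrays with 2, with Benjamini-Hochberg adjustment over all 14556 genes and cutoffs of a 2-fold change and an unadjusted p of 0.05. An exact permutation test of 2 against 2 cannot go below 0.333. Figures were drawn with matplotlib 3.10.9 in Python 3.11.15. The steps were tested on simulated data.

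Replicate numbers stand for the selection time, which with the slide is shared across the shRNAs. Deviations of arrays with the same number had a correlation of 0.703 across genes, so the other factor was also fitted as a replicate block, which leaves 1 residual degree of freedom. The p-values of that fit therefore rest largely on the variance that limma shares across all genes, and less on the gene's own arrays. Between the shRNAs the standard error was 0.11 for SLC7A11 and 0.078 for ATF3 with the block, against 0.31 and 0.49 without. That fit was also run with each of the other settings, a choice made after seeing the data.

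All 43 genes are named, and of the further pathway genes the 3 with the largest change of the same sign in both single-array comparisons, with EIF2AK1 and EIF2AK2. The members and lists were chosen with earlier results of these data known. Alternatives tried were quantile normalization, normexp correction of the background (offset 50) alone or followed by it, median centring, a percentile taken over detected probes, the authors' values, other filters on dim probes, averaging the probes of a gene, other cutoffs, and leaving out each array. SLC3A2 and EIF2S3 had no named probe.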

Additional observations from a re-analysis of the deposited data

Results flagged for a closer look

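VLDLR, the lipoprotein receptor gene of the ATF4 branch, moved in opposite directions at the selection times. Its log2 fold change between ALKBH3 and control shRNA was 0.21 at 48 h and -0.33 at 96 h. Both sizes exceeded 0.18, the median absolute log2 difference between the 2 control arrays over all genes. Its other probe, well above background on 1 array, had -0.12 and -0.40. With 1 array for each shRNA and time, the difference between the times was not tested. No group held enough arrays to look for a single array that stands apart.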

How the results depend on the processing

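Between the shRNAs the count of ATF4 branch genes past the cutoffs, 0, became 1 with a 1.5-fold cutoff and 2 without a fold cutoff, and lay between 0 and 1 with each array left out. The ATF4 branch median of 0.19 was 0.18 after normexp correction with or without quantile normalization, with quantile normalization, with the authors' values and with no filter, 0.16 after median centring, 0.21 with the percentile over detected probes and 0.14 with the mean over probes. With each array left out it lay between 0.0027 and 0.23, and the ER chaperone median between -0.16 and 0.019, reversed at 0.015 without control shRNA replicate 1 (48 h) and at 0.019 without ALKBH3 shRNA replicate 2 (96 h). The cause was not tested. From 48 h to 96 h the ATF4 branch count of 1 was 0 with normexp correction, normexp and quantile normalization, median centring, the authors' values, the mean over probes, the adjusted p and 2-fold in each comparison, 5 with a 1.5-fold cutoff, 8 without a fold cutoff and from 0 to 1 when an array was left out. The ER chaperone count of 0 was 1 and 5 with the latter cutoffs. The ATF4 branch median of -0.25 was -0.13 and -0.14 after normexp correction without and with quantile normalization, -0.13 with the authors' values, -0.19 after median centring, -0.23 with the percentile over detected probes and from -0.23 to -0.18 when an array was left out, where the ER chaperone median lay between -0.26 and -0.15.

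With the replicate block, the counts past the 2-fold cutoffs were 0 and 0 between the shRNAs and 1 and 0 with time in the ATF4 and ER chaperone branches. The 2 genes past the adjusted p between the shRNAs were 5 after normexp and quantile normalization, 1 with the mean over probes and 0 with no filter, and the 9 with time were 15, 14 with the authors' values and 0 with no filter, a setting in which no gene of the whole table passed. Without the block no gene passed under any setting. Leaving out an array leaves the fit with the block no residual degree of freedom, so it was not run. With 4 arrays, 7 of the 41 genes changed sign between the shRNAs and 11 with time under some setting, none of them called.

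With 2 arrays a group the precision is limited. Without time point as a block, the 95% interval of the log2 fold change ran from -0.75 to 0.54 for ATF4. That fit counts the difference between the times as spread, and the standard error of 0.24 was 0.076 with the block.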
